A study of Mus musculus with 2 samples.

Results

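The Fos, Jun and immediate early factors are the 10 genes Fos, Fosb, Fosl1, Fosl2, Jun, Junb, Jund, Egr1, Atf3 and Ier3, taken by gene symbol from the 37309 genes of the deposited table. Each symbol matched 1 gene, and 9 of the 10 were expressed, which here means that the RPKM, the number of reads scaled to exon length and library size, reached 1 in 1 library or both. The exception was Fosl1. The supportive library came from cultured intestinal subepithelial myofibroblasts (ISEMFs) of the small intestine of wild type C57BL/6 neonates aged 5 days, and the non-supportive library from ISEMFs of adult C57BL/6 mice aged 2 months. Both kinds of culture were isolated in the same way and grown without epithelium in a medium with serum, insulin, transferrin and epidermal growth factor. The names for these populations come from how well they sustained intestinal crypts in co-culture without added R-spondin. There was 1 library of each, so no difference given here has a replicate check, the age of the mice and the isolation cannot be told apart from the population, and no p-value is given. The study's text names both an adult mouse and adult mice as the source, so a single animal cannot be told from several. How long before lysis the medium was last changed is not given in the sources used here, and the deposited names carry the tags P16 and P3, whose meaning is not given either.

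Fos and Jun proteins are the subunits of AP-1, a transcription factor that binds DNA as a dimer held together by leucine zippers. Jun proteins can pair with each other or with a Fos protein, whereas Fos proteins need a Jun partner. Fos, Fosb and Egr1 are classic immediate early genes: serum and growth factors switch them on within minutes through MAP kinases, which act on serum response factor (SRF) and its ETS partners at CArG boxes, and their mRNAs are then rapidly degraded. Fosl1 and Fosl2 encode Fos relatives that lack a strong activation domain and are usually induced later and for longer. In myofibroblasts AP-1 is known as a regulator of matrix proteases, cytokines and other response genes.

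The libraries held 50674472 reads on genes (supportive) and 49615497 (non-supportive), and 3 reads make 5.92e-06% and 6.05e-06% of these. Of the 10 myofibroblast markers examined, 9 and 10 reached an RPKM of 1, with Acta2 at 908 and 1410 and Vim at 325 and 407. Of these 10 markers 5 differed 2-fold, against 18.3% of all 10086 expressed genes. Col3a1 (272 and 26.4), Col1a2 (286 and 41.6) and Pdgfrb (28.1 and 7.67) were higher in supportive ISEMFs. Des (0.575 and 3.40) and Pdgfra (3.37 and 12.1) were lower. Markers of macrophages and other immune cells differed between the libraries, with a summed RPKM of 9.65 in the supportive one against 131. Of 15 such markers 14 were lower in the supportive library, 7 with no read there (Tyrobp, Emr1, Itgam, Ptprc, Aif1, Cd3e and Cd79a). Cd3e and Cd79a had only 3 and 1 reads in the non-supportive library, so their direction is not firm. An RPKM of 1 was reached by 2 of the 15 in the supportive library and by 9 in the non-supportive one. These 9 were all 2-fold lower in supportive ISEMFs, where 9.27% of all expressed genes were 2-fold lower. For 13 epithelial markers, with 7 lower and 3 higher in the supportive library, the RPKM summed to 7.83 and 4.23, but 0.611 and 4.22 without Lgr5. Most of that rest was Cdh1 in the supportive library (0.427 and 0.050) and Krt20 in the non-supportive one (0.080 and 3.13). For 8 neuronal and glial markers the sum was 8.68 and 3.72, but 1.99 and 3.61 without S100b, nearly all of it Tubb3 (1.92 and 3.52). For 9 smooth muscle and pericyte markers, with 6 lower and 3 higher in the supportive library, the sum was 363 and 599, and 116 and 307 without Actg2. None of 6 endothelial and 6 mesothelial markers was expressed. Mitochondrial ribosomal RNA took 13.5% and 7.13% of the reads. Whether the markers of any of these cell types or the ribosomal RNA has a part in the results below was not tested. In bulk RNA, fewer cells of a type and less RNA per cell cannot be told apart.

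A 2-fold difference in RPKM between the libraries, on a log2 scale with a pseudocount of 0.1, was found for 7 of the 9 expressed genes, against 18.3% of all 10086 expressed genes. Fos, Fosb, Junb, Egr1 and Atf3 were higher in supportive ISEMFs (5 genes, where 9.01% of all genes were 2-fold higher), and Fosl2 and Ier3 were lower (2 genes, where 9.27% of all genes were 2-fold lower). Jun and Jund did not reach 2-fold. The median log2 ratio of supportive over non-supportive was 1.24 over the 9 genes and -0.07 over all 10086, and the median size of the log2 ratio was 1.25 and 0.42. Exact Clopper-Pearson intervals of the RPKM ratio, computed at 95% from the reads of these 2 libraries, cover counting error only. They lay off 1 for all 9 genes and also for 82.3% of all 10086 genes, so an interval that leaves out 1 does not set these genes apart at this depth.

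**Figure D1:**
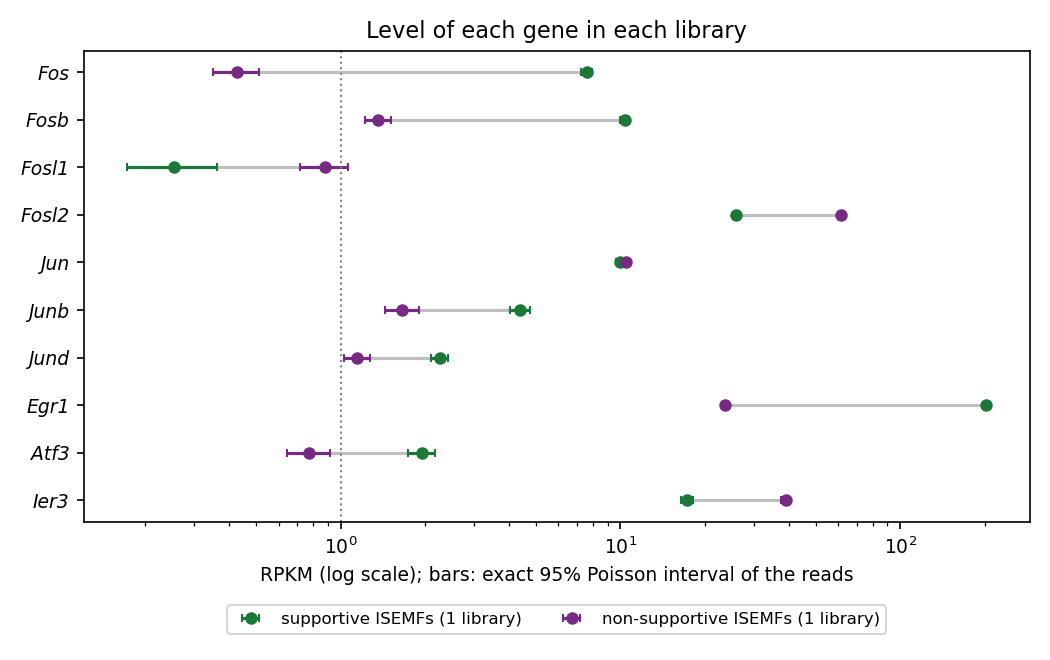
RPKM (log axis) of each of the 10 genes in the supportive and the non-supportive library, 1 point per library, with exact 95% Poisson intervals of the reads and a dotted line at an RPKM of 1. Egr1 was the highest of the 10 in the supportive library at 202, Fosl2 the highest in the non-supportive one at 61.5, and the points of Jun nearly coincide.

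The order of the levels differed between the libraries. In supportive ISEMFs the RPKM ran from Egr1 (202) through Fosl2 (25.8), Ier3 (17.3), Fosb (10.3), Jun (9.94), Fos (7.57), Junb (4.38), Jund (2.26) and Atf3 (1.95) to Fosl1 (0.254). In non-supportive ISEMFs it ran from Fosl2 (61.5) through Ier3 (38.9), Egr1 (23.6), Jun (10.5), Junb (1.66), Fosb (1.36), Jund (1.15), Fosl1 (0.877) and Atf3 (0.772) to Fos (0.425). Neighbors whose Poisson intervals overlapped were Fosb with Jun and Jund with Atf3 in the supportive library, and Junb with Fosb, Fosb with Jund, Jund with Fosl1, and Fosl1 with Atf3 in the non-supportive one. Among protein-coding genes Egr1 stood at rank 61 in supportive against 1073 in non-supportive ISEMFs, while Fos stood at rank 3032 and 10134. Fosl2 moved the other way, from rank 843 to 327.

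Fos, the founding member of the family, had 2051 reads in supportive against 112 in non-supportive ISEMFs, an RPKM of 7.57 against 0.425. The ratio was 17.8 (14.7 to 21.7), a log2 ratio of 3.87, and only 68 of the 10086 genes had a higher log2 ratio. Fosb, a close relative of Fos that also responds to serum, had 2773 and 355 reads and an RPKM of 10.3 and 1.36. It was 7.59-fold higher (6.79 to 8.50), a log2 ratio of 2.84. In the mm9 annotation Fos spans positions 86814840 to 86818223 on the plus strand of chromosome 12, and Fosb positions 19888070 to 19895394 on the minus strand of chromosome 7, each with 4 exon blocks and no exon shared with another gene.

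**Figure D2:**
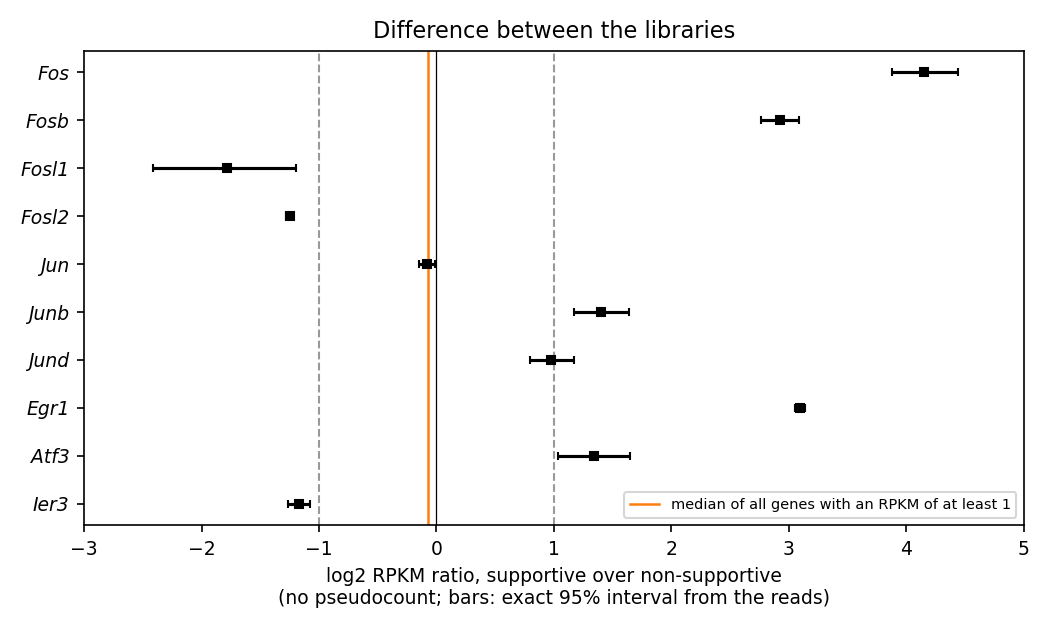
Log2 of the RPKM ratio, supportive over non-supportive, without a pseudocount, with the exact 95% interval from the reads of 1 library each. Dashed lines mark 2-fold and the orange line the median of all 10086 expressed genes. Fos, Egr1 and Fosb lie farthest to the right, Fosl1, Fosl2 and Ier3 lie left of the lower dashed line, and Jun lies at the median.

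The upstream stretches of Fos and Fosb that hold a CArG box (CC, 6 bases of A or T, then GG), the binding site of SRF, are shown because these genes had 2 of the 3 largest ratios among the 10. They were read from the mm9 genome in the direction of transcription, with the CArG box in capitals. The Fos stretch is chr12:86814481-86814590 and ends 250 bases before the gene start. The Fosb stretch is chr7:19895607-19895716 on the minus strand and ends 213 bases before the start.
Fos: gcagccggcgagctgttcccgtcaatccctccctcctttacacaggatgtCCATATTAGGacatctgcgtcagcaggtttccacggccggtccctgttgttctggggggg
Fosb: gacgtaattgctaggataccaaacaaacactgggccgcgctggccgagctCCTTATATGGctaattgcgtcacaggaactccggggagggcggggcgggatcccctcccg
The CArG box begins 309 bases before the start of Fos and 272 bases before that of Fosb. In both stretches the letters TGCGTCA follow after 5 bases. These letters were noticed in the printed stretches and then searched, and 2.75% of 22379 protein-coding promoters hold them on either strand within 500 bases upstream, Fosl1 among them.

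In the 500 bases upstream of the start, a CArG box (either strand) was found in 3 of the 10 genes, Fos, Fosb and Egr1, and in 2.70% of all 22379 promoters. Egr1 held 5 of them, beginning at 407, 369, 353, 105 and 83 bases before the start. This window was chosen after the first one had been searched. In the first window, from 250 bases before to 50 after the start, only Egr1 held a CArG box, against 1.47% of all promoters. The GC box GGGCGG was in 7 of the 10 genes in the first window, against 43.4% of promoters, and it was absent there from Junb, Jund and Egr1. The letters TGANTCA, with any base in the middle, are a looser pattern than the AP-1 site itself. They were in none of the 10 in the first window (6.93% of promoters). In the longer one (12.1%) they were only in Fos, beginning 462 bases upstream. The cAMP response element TGACGTCA was in none of the 10 in either window (2.32% and 2.21% of promoters). A match of letters does not show that a factor binds there.

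**Figure D3:**
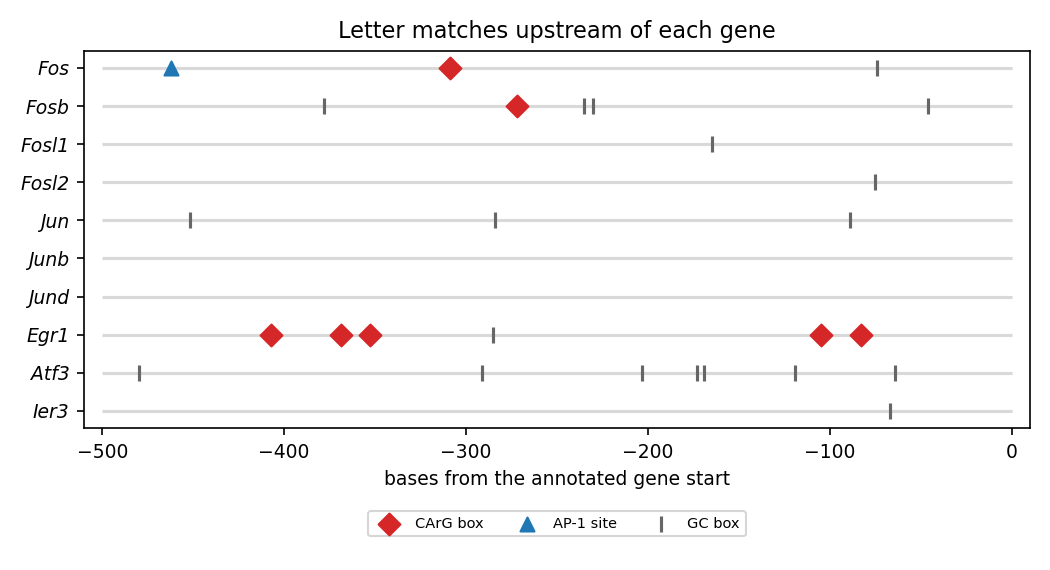
Positions of letter matches in the 500 bases upstream of the annotated start of each of the 10 genes, in bases from the start, on either strand. Diamonds mark the CArG box, the triangle the letters TGANTCA (labeled AP-1 site) and ticks the GC box. Diamonds stand in the rows of Fos, Fosb and Egr1 alone, with 5 in that of Egr1.

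Egr1, a zinc finger factor induced by the same growth factor signals as Fos, was the most abundant of the 10 in the supportive library. It had 44716 reads there and 5088 in non-supportive ISEMFs, an RPKM of 202 against 23.6. The ratio was 8.54 (8.30 to 8.79), a log2 ratio of 3.09, with 133 of the 10086 genes above it. The gene lies on chromosome 18 and has 2 exon blocks, of which 8 bases overlap an annotated antisense gene that had no read.

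Fosl2 and Fosl1 went the other way from Fos and Fosb. Fosl2 encodes Fra-2 and had 10815 reads in supportive against 25013 in non-supportive ISEMFs, an RPKM of 25.8 against 61.5. It was 2.38-fold higher in non-supportive ISEMFs (2.33 to 2.43), a log2 ratio of -1.25. Fosl1, which encodes Fra-1, had 31 reads against 104, an RPKM of 0.254 against 0.877, and so stayed under an RPKM of 1 in both. Its reads were 3.45-fold more frequent in the non-supportive library (2.29 to 5.34). Of the exon bases of Fosl1, 68.1% overlap Ccdc85b on the opposite strand, which had 271 and 542 reads. The paper states that reads which could not be assigned to a single gene were left out. If strand was ignored, reads in the shared bases would be lost while the RPKM still divides by all 1707 exon bases. The RPKM of Fosl1 would then be too low in both libraries. If reads were instead counted by strand from a library that does not keep strand, reads of Ccdc85b could be counted for Fosl1. The reads of Ccdc85b were also more frequent in the non-supportive library. Since the strand setting is not known, the ratio of Fosl1 and its direction are uncertain. So are its place under an RPKM of 1, its rank and its share of the Fos family. Fosl2 lies on chromosome 5 from 32438845 to 32460204 and Fosl1 on chromosome 19 from 5447703 to 5455945, both on the plus strand with 4 exon blocks.

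The log2 ratios of the Jun genes spanned a smaller range than those of the Fos genes, from -0.08 to 1.35 against -1.46 to 3.87. Jun had 3578 reads in supportive against 3674 in non-supportive ISEMFs, an RPKM of 9.94 against 10.5, and its log2 ratio of -0.08 lay next to the -0.07 of all genes. The direction of that small difference is not firm, since it turned to 0.03 when mitochondrial ribosomal RNA was left out of the library totals. Junb, which often restrains Jun in proliferation, had 566 and 208 reads, an RPKM of 4.38 against 1.66, and was 2.64-fold higher in supportive ISEMFs (2.25 to 3.12). Jund, the Jun protein that is usually present in resting cells, had 716 and 353 reads, an RPKM of 2.26 against 1.15, and a ratio of 1.97 (1.73 to 2.25). With the pseudocount its log2 ratio was 0.92, just under the 2-fold line, and the interval reaches past 2. It crossed the line, at 1.03, with totals that leave out mitochondrial ribosomal RNA. All 3 Jun genes have a single exon block, on chromosome 4 from 94715725 to 94718913 (Jun, minus strand), chromosome 8 from 87500811 to 87502617 (Junb, minus strand) and chromosome 8 from 73221638 to 73224515 (Jund, plus strand). An annotated antisense gene overlaps 7.28% of the exon bases of Jun (25 and 33 reads) and another 18.9% of those of Jund (0 reads in both libraries). If strand was ignored, reads in these shared bases would be lost to both genes of a pair. The levels of Jun and Jund, and the family sums and shares below that use them, would then be affected.

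Summed over its 4 genes, the Fos family had a level of 44.0 RPKM in supportive against 64.2 in non-supportive ISEMFs, which is 1.46-fold more in the latter. The make-up of that sum differed more than the sum itself. Fosl2 made 58.7% of it in supportive ISEMFs and 95.8% in non-supportive ISEMFs. Fos made 17.2% and 0.663%, Fosb 23.5% and 2.12%, and Fosl1 0.577% and 1.37%. Fosl1 and Fosl2 together therefore had 1.46 times the RPKM of Fos and Fosb together in supportive ISEMFs, against 34.9 times in non-supportive ISEMFs. The 3 Jun genes summed to an RPKM of 16.6 and 13.3, a ratio of 1.25 (1.19 to 1.30, from the error of the reads). Jun made 59.9% of this sum in supportive and 78.9% in non-supportive ISEMFs, Junb 26.4% and 12.5%, and Jund 13.6% and 8.61%. The summed RPKM of the Fos family was 2.65 times that of the Jun family in supportive ISEMFs, against 4.82 times in non-supportive ISEMFs.

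Levels of different genes rest on the exon length used. The deposited lengths of Fos (3792 bases), Jun (5037), Jund (4437) and Atf3 (2349) exceed the union of their exons in the mm9 annotation, which is 2352, 3189, 2878 and 1984 bases, while those of the other 6 genes equal it. With the union, the RPKM of Fos was 12.2 and 0.686 and stood above that of Fosb in the supportive library, where it stood below with the deposited length. Jun, at 15.7, then also stood above Fosb there. In the non-supportive library Jund, at 1.77, then stood above Junb and Fosb, and Atf3, at 0.914, above Fosl1. Fosl2 then made 53.1% and 95.5% of the Fos family, Fos 25.1% and 1.06%, and Jun 66.6% and 82.9% of the Jun family. Fosl1 and Fosl2 together then had 1.16 times the RPKM of Fos and Fosb together in supportive ISEMFs, against 30.5 times in non-supportive ISEMFs. The summed RPKM of the Fos family was then 2.06 times that of the Jun family in supportive ISEMFs, against 3.22 times in non-supportive ISEMFs. Among protein-coding genes ranked with the union, Egr1 stood at 74 in supportive and 1288 in non-supportive ISEMFs, Fos at 2335 and 9722, and Fosl2 at 1043 and 408. The ratio of 1 gene between the libraries does not depend on its length.

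**Figure D4:**
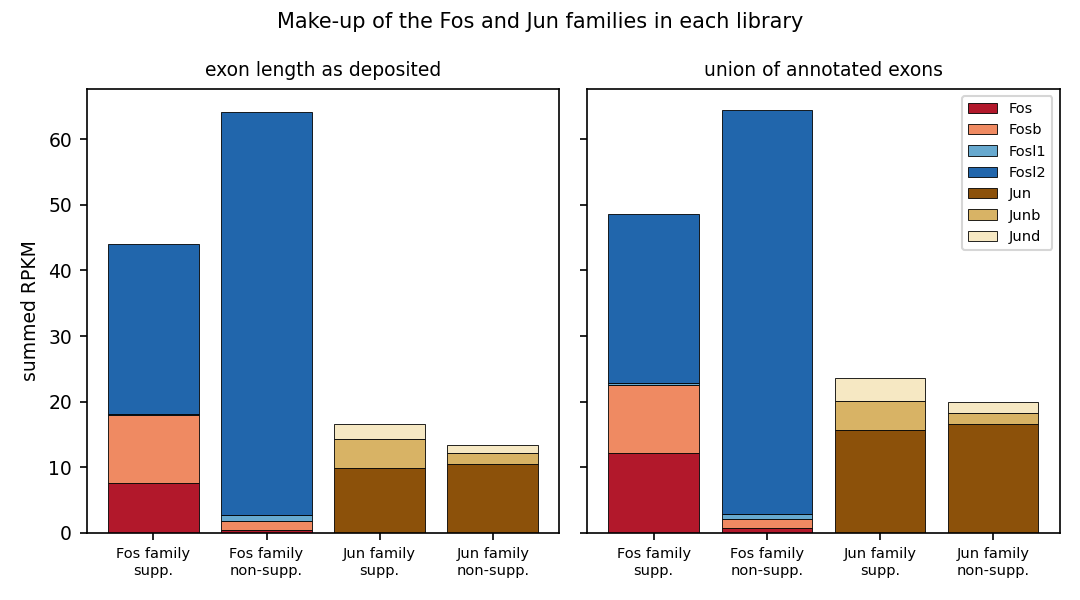
Summed RPKM of the Fos family (Fos, Fosb, Fosl1, Fosl2) and the Jun family (Jun, Junb, Jund) in the supportive and the non-supportive library, 1 library per bar, with exon lengths as deposited (left) and with the union of annotated exons (right). Fosl2 (dark blue) fills 95.8% of the non-supportive Fos bar and 58.7% of the supportive one in the left panel, and the Jun bars differ by less than the Fos bars.

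Atf3 and Ier3, the stress-responsive genes of the group, had opposite directions. Atf3 encodes a bZIP factor induced by many stresses and had 328 reads in the supportive library against 126, an RPKM of 1.95 against 0.772. It was 2.53-fold higher in supportive ISEMFs (2.05 to 3.13), a log2 ratio of 1.24, which fell under 2-fold, at 0.74, with a pseudocount of 1. Ier3, an early response gene that modulates survival and NF-κB and MAP kinase signaling, had 1398 reads against 3055, an RPKM of 17.3 against 38.9, and was 2.25-fold higher in non-supportive ISEMFs (2.11 to 2.40). Atf3 lies on chromosome 1 from 192994175 to 193007219 (minus strand, 4 exon blocks) and Ier3 on chromosome 17 from 35958629 to 35959868 (plus strand, 2 exon blocks). The pentamer ATTTA, the core of AU-rich elements that mark mRNAs for rapid decay, occurred in the annotated 3′ UTR of all 10 genes and of 74.2% of 8743 expressed protein-coding genes. Its density ran from 0.472 per kilobase in Fosb to 8.16 in Ier3, with 4.91 in Fos, against a median of 1.45 over the same 8743 genes.

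Other immediate early genes went both ways. Of 41 such genes, 32 were expressed, of which 9 were 2-fold higher in supportive ISEMFs, 6 were 2-fold lower and 17 were neither, and the median log2 ratio was 0.21. The share past 2-fold was 46.9%, against 18.3% of all genes. The highest ratios were those of Gem, a small GTP-binding protein, at an RPKM of 12.6 against 1.13 (11.1-fold, 9.59 to 12.9), Gadd45a, a growth arrest and DNA damage gene, at 46.9 against 9.57 (4.90-fold), and Nr4a1, an orphan nuclear receptor, at 6.50 against 1.30 (4.98-fold). On the other side, Ptgs2, which encodes cyclooxygenase 2, was 36.5-fold lower in supportive ISEMFs, Nfkbiz, an inducible cofactor of NF-κB, was at 2.17 against 15.0 (6.91-fold lower) and Hbegf, a ligand of the EGF receptor, was 3.95-fold lower. The relatives of Egr1, named after their values were seen, were at 4.97 against 1.54 (Egr2) and 0.419 against 0.069 (Egr3, under an RPKM of 1).

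Of 12 other bZIP genes of the AP-1 group, 7 were expressed and none of these had a 2-fold difference. The most abundant, the small Maf gene Maff, which pairs with other bZIP proteins but lacks an activation domain, was at 12.1 in supportive and 22.0 in non-supportive ISEMFs, a log2 ratio of -0.85. Of 9 genes for SRF, its ETS partners and related factors, 8 were expressed and 1 differed 2-fold (12.5%, against 18.3% of all genes). This was Mkl1, an actin-regulated cofactor of SRF, at 1.73 against 3.70 (2.14-fold lower), a difference that dropped under 2-fold or out of the count in 5 of 10 alternative settings. Srf itself, named after its value was seen, was at 11.7 against 21.3, a log2 ratio of -0.85, opposite in sign to those of Fos, Fosb and Egr1.

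Of 27 genes of the MAP kinase cascade, which carries growth factor signals to these promoters, 24 were expressed and 3 were 2-fold lower in supportive ISEMFs (12.5%, where 9.27% of all genes were 2-fold lower), with none 2-fold higher. The share past 2-fold in either direction was below the 18.3% of all genes. The 3 genes were Egfr, the receptor of the EGF in the medium, at 11.6 against 28.0 (2.41-fold lower), Mapk9, a kinase of Jun, at 3.07 against 6.76 (2.20-fold lower), and Nras at 16.1 against 33.9 (2.11-fold lower). Nras was under 2-fold with the median of all genes set to 0 and with totals that leave out mitochondrial ribosomal RNA. Of 21 feedback inhibitors of this cascade and of Egr factors, 18 were expressed, with 2 higher (11.1%, against 9.01% of all genes) and 6 lower (33.3%, against 9.27%). Spry1, an inhibitor of receptor tyrosine kinase signaling, was at 14.4 against 2.41 (5.95-fold higher), and Nab2, a corepressor that binds Egr1 and is itself an Egr1 target, was at 6.64 against 1.79 (3.71-fold higher, 3.38 to 4.07). The MAP kinase phosphatases Dusp5, at 1.21 against 7.55, Dusp10, at 0.792 against 4.60, and Dusp4, at 10.8 against 44.9, were 6.27-fold, 5.81-fold and 4.18-fold lower. Dusp1, the phosphatase best known as an immediate early gene itself and named after its value was seen, was at 28.4 against 28.1 (ratio 1.01, 0.974 to 1.05).

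Of 8 factors that bind AU-rich elements, all were expressed and only Elavl1, which stabilizes such mRNAs, differed 2-fold, at 8.12 against 17.1 (2.10-fold lower). This is 12.5% of the list, against 18.3% of all genes, and the difference was under 2-fold in 2 of 4 other scalings. Zfp36, which promotes their decay and was named after its value was seen, was at 138 against 76.9, a log2 ratio of 0.85. Of 23 genes widely regarded as AP-1 targets, 20 were expressed, of which 12 were 2-fold lower in supportive ISEMFs and none was 2-fold higher. Of all genes, 9.27% were 2-fold lower and 9.01% 2-fold higher, and the median log2 ratio of the 20 was -1.67. All 20 met the cutoff for expressed in non-supportive ISEMFs, but only 16 did so in supportive ISEMFs. Among the 12, Mmp10, Mmp13 and Mmp9 were counted through their non-supportive level alone (6.21, 4.34 and 1.41, against 0.024, 0.021 and 0). With a minimum RPKM of 5, the count past 2-fold was 9 in place of 12. The matrix proteases Mmp10 (3 reads against 742) and Mmp13 (4 against 806) were 255-fold (86.7 to 1237) and 207-fold (80.7 to 763) lower, and Spp1, which encodes the matrix protein osteopontin, was at 1.06 against 28.9 (27.3-fold lower). Mmp9, named after its value was seen, had 0 reads against 387 and was at least 133-fold lower, taking 3 reads as the floor of the supportive library. Macrophages can express several of these genes, Spp1 among them, and the 9 expressed immune markers given above were all 2-fold lower in the same library. Whether such cells have a part in these differences was not tested. Of 16 heat shock and stress genes, all expressed, 3 were higher (18.8%, against 9.01% of all genes) and 2 lower (12.5%, against 9.27%). Trib3 (3.78 against 0.940), Chac1 (8.94 against 2.77) and Ddit3 (26.8 against 12.6), which belong to the response to amino acid and endoplasmic reticulum stress, were 4.02-fold, 3.23-fold and 2.13-fold higher, and the chaperone genes Hspb1 (0.665 against 1.96) and Hspa8 (9.37 against 18.9) were 2.94-fold and 2.02-fold lower. Hspa8 was under 2-fold in all 4 other scalings. Over all 8 lists, 45 of 133 expressed genes differed 2-fold (33.8%, against 18.3% of all genes). Of the 133, 14 were higher (10.5%, against 9.01%) and 31 lower (23.3%, against 9.27%).

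**Figure D5:**
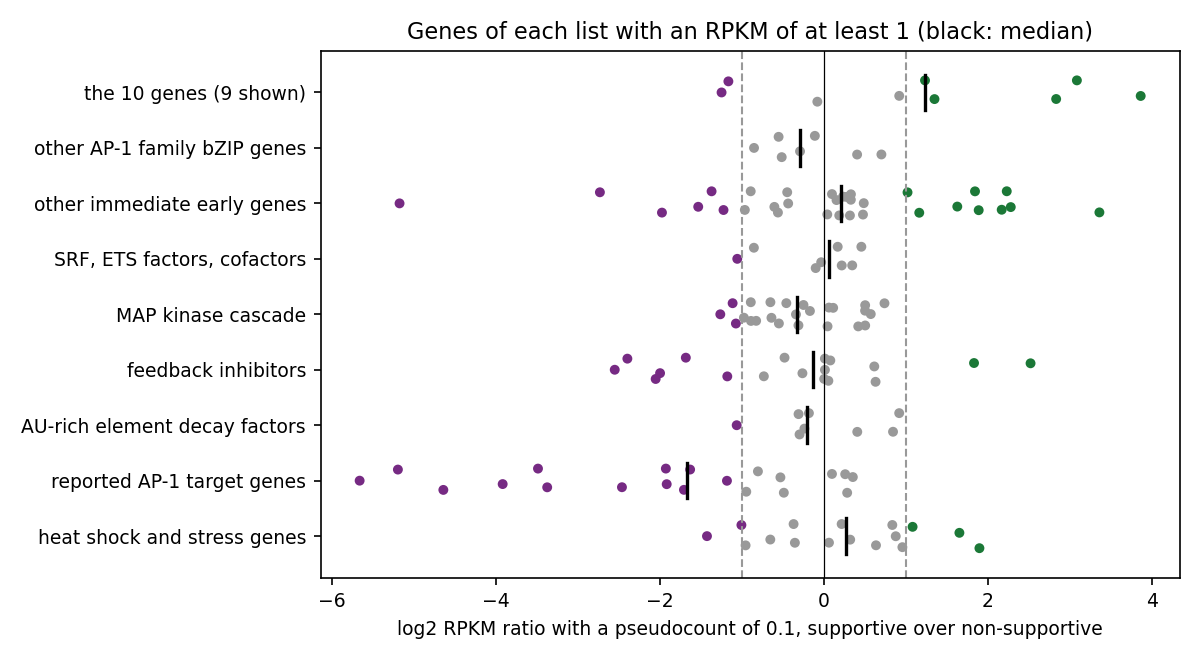
Log2 RPKM ratio with a pseudocount of 0.1, supportive over non-supportive, of each expressed gene, for the Fos, Jun and immediate early factors (top row, 9 genes) and the 8 lists. Green and purple points lie past 2-fold and black bars are medians, which run from 1.24 in the top row to -1.67 for the reported AP-1 targets.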

How the data were processed

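RNA was sequenced from 1 library of supportive and 1 of non-supportive ISEMFs. The authors made polyadenylated RNA libraries with the TruSeq kit, aligned single-end reads of 50 bases to mm9 with TopHat (TopHat2 2.0.4 in the submitters' processing notes) and counted uniquely mapped reads per gene with HTSeq (0.5.4p3). The strand setting of the counting and the Ensembl release are not given in the sources used here. The deposited counts are whole numbers of reads. The deposited RPKM values divide them by exon length and library size, and recomputing them from implied library sizes of 71463423 and 69449374 left gaps of at most 3.36e-06. The 3 columns of the authors' own comparison (log2 ratio, p-value, adjusted p-value) and a shorter table of Wnt pathway genes were not used.

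The genes and lists were chosen with earlier results of these data known. Log2 ratios used a pseudocount of 0.1, which understates differences of low genes. A 2-fold difference was counted over expressed genes (RPKM of 1 or more in a library). With 1 library per population, no test of edgeR or DESeq2 can estimate variation between replicates. Ratio intervals are exact Clopper-Pearson intervals of the share of reads. PCR copies are not independent molecules, so all intervals cover counting error only, and intervals of family sums use the delta method. From each list, up to 3 genes past 2-fold with the largest log2 ratio, pseudocount included, in each direction are named, or the most abundant gene where none passed. Where a symbol stood on 2 rows (3 list genes), the row with more reads was used. All 37309 genes were found in GENCODE vM1, an annotation of the same genome build, on the same chromosome. The interval and the call were tried on simulated counts that vary by counting error alone. This cannot show how they hold with PCR copies or with variation between cultures. Alternatives were pseudocounts of 1 and 0.001, minimum RPKMs of 5 and 0, a 4-fold threshold and other scalings, with TMM factors (0.984 and 1.02) from edgeR 4.0.16 and size factors from DESeq2 1.42.0 (1 for both). Marker sums without their leading gene, union exon lengths, the window of 500 bases and the letters TGCGTCA were added after the data were seen. Scripts ran in R 4.3.3 and in Python 3.11.15 with pysam 0.24.0, scipy 1.17.1, matplotlib 3.10.9, pandas 2.3.3 and numpy 2.4.6.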

Additional observations from a re-analysis of the deposited data

How the results depend on the processing

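No paired analysis was possible because there was 1 library of each population. Of the 10 genes, 9 kept the sign of their log2 ratio under all 7 alternatives of pseudocount, scaling and exon length, and the exception was Jun (-0.08 to 0.03). The number of genes past 2-fold was 7, and it lay between 5 and 8 except at a 4-fold threshold, where 3 remained (Fos, Fosb and Egr1), none of them lower. With a minimum RPKM of 5, 3 were higher. The median log2 ratio of 1.24 was 0.74 with a pseudocount of 1. The log2 ratio of the summed Fos family, -0.54, was -0.47 with the median of all genes set to 0, -0.49 with TMM factors, -0.50 with size factors, -0.43 without mitochondrial ribosomal RNA in the totals and -0.40 with union exon lengths. That of the Jun family, 0.32, was 0.39 with the median set to 0, 0.43 without mitochondrial ribosomal RNA and 0.23 with union exon lengths. Leaving out mitochondrial ribosomal RNA shifted the median of all genes by 0.12, the largest shift of the scalings run. Relative to it Fos, Fosb, Junb, Egr1 and Atf3 were higher and Fosl2 and Ier3 lower as before. Over the 8 lists, 45 genes were past 2-fold, 17 at 4-fold and 32 to 52 elsewhere. At 4-fold the counts were 6 for other immediate early genes, 4 for feedback inhibitors, 7 for AP-1 targets and 0 for the MAP kinase cascade and the stress genes. The stress genes numbered 3 in place of 5 with a pseudocount of 1 or a minimum RPKM of 5. The 2-fold difference was lost by Hspa8 in 6 of 10 alternatives, Mkl1 in 5, Elavl1 in 4, Nras and Hspb1 in 3 each, and 3 other bZIP genes passed when no minimum RPKM was set. The causes of these shifts were not tested. Fosl1 had the fewest reads of the 10 genes, 31 and 104, and 68.1% of its exon bases overlap Ccdc85b. How far depth or this overlap limits its values was not tested.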

Other observations

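The deposited exon length equaled the union of annotated exons for 24509 of the 37309 genes (65.7%) and exceeded it for 12800 (34.3%), by a median factor of 1.34. It was below the union for 0 genes and above the summed length of a gene's distinct exons for 0 genes. For Fos the deposited 3792 bases are 1.61 times the union, for Jun the factor is 1.58, for Jund 1.54 and for Atf3 1.18. RPKM levels of such genes are lower than levels per base of exon union by these factors in both libraries.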
